A study of Mus musculus with 12 samples.

Results

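The genes described here encode the enzymes that break down phenylalanine, tyrosine and tryptophan, and 9 of them (Tat, Hpd, Hgd, Fah, Tdo2, Kmo, Haao, Kynu and Acmsd) were followed among the 21911 protein-coding genes of the GENCODE M21 annotation of mm10. The genes were chosen by function, with earlier results of these data known. Every H3K9ac peak that overlapped the gene body or the 5 kb either side of the gene start was taken. This gave 31 of 22968 peaks in B6 replicate 1, 24 of 11619 in B6 replicate 2, 30 of 17310 in MSM replicate 1, 26 of 17584 in MSM replicate 2, 38 of 20173 in F1 BM and 26 of 13235 in F1 MB. Chromatin carrying acetylated lysine 9 of histone H3 (H3K9ac), which marks active promoters and enhancers, had been precipitated from formaldehyde-fixed livers of adult mice and sequenced (ChIP-seq).

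The groups were the inbred strain C57BL/6J (B6, 2 libraries), the inbred strain MSM/Ms (MSM, 2 libraries), the cross of B6 females with MSM males (F1 BM, 1 library) and the reciprocal cross of MSM females with B6 males (F1 MB, 1 library), both F1 hybrids. No treatment or engineered allele was given for any group, and the study describes the parental libraries as coming from separate individuals. The labels also list 6 input libraries, which were not analysed here. The comparison between B6 and MSM asks where acetylated domains differ between the strains, and each F1 library shows a liver that holds both genomes, without replicate error.

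The liver takes apart surplus aromatic amino acids in a pair of pathways. In the tyrosine branch, tyrosine aminotransferase (Tat), 4-hydroxyphenylpyruvate dioxygenase (Hpd), homogentisate dioxygenase (Hgd) and fumarylacetoacetate hydrolase (Fah) act in that order and yield fumarate and acetoacetate. In the kynurenine branch, tryptophan dioxygenase (Tdo2) opens the indole ring, kynurenine monooxygenase (Kmo), kynureninase (Kynu) and 3-hydroxyanthranilate dioxygenase (Haao) carry the product towards NAD synthesis, and aminocarboxymuconate semialdehyde decarboxylase (Acmsd) diverts it to oxidation. Tat and Tdo2 are classical targets of glucocorticoids in liver.

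The peak lists differed in length. The B6 lists covered 16.0 and 6.28 Mb, the MSM lists 9.66 and 9.69 Mb, and those of the hybrids 12.3 Mb (F1 BM) and 7.46 Mb (F1 MB). The longest and the shortest list were thus both from B6, so that a call in both B6 libraries had to pass in the shortest list. Likewise, a call in both MSM libraries and neither B6 library had to be absent from the longest list. Of the hepatocyte markers, 9 of 9 that were found by symbol had a promoter peak in all 6 libraries, whereas 0 of 6 markers of Kupffer cells, 0 of 5 of endothelium and 0 of 8 genes not used by liver did so. The 5 endothelial markers and 1 Kupffer cell marker, Csf1r, had one in some of the libraries. Of the markers of stellate cells, cholangiocytes and lymphocytes, 0 of 5 each had one in all 6 libraries. In each of these lists 1 marker had one, in B6 replicate 1 or F1 BM alone, the libraries with the longest lists. In whole liver, a change in the cells that carry a mark and a change in the mark per cell cannot be told apart.

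The promoter sequences are shown to give the base composition next to the starts from which the domains are measured. The set of RefSeq (GRCm38.p6) promoters used, from 250 bases before to 50 after the start, held 8 of the 9 genes and had no entry for Kynu. The 100 bases just upstream of each RefSeq start are printed 5′ to 3′ on the gene's strand, with every CpG dinucleotide in capitals, for the 5 genes where at most 4 of these bases fall in a GENCODE exon.
Tat (chr8:109990336-109990435, plus strand): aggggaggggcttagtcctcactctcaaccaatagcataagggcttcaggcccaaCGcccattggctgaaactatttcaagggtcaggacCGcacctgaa
Hpd (chr5:123182724-123182823, minus strand): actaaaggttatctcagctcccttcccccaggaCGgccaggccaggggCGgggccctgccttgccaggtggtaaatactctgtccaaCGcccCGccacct
Hgd (chr16:37580053-37580152, plus strand): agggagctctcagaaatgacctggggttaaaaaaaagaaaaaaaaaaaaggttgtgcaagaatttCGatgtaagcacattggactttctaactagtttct
Fah (chr7:84605943-84606042, minus strand): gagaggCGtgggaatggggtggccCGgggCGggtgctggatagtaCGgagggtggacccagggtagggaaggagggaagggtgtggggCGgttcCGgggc
Acmsd (chr1:127729313-127729412, plus strand): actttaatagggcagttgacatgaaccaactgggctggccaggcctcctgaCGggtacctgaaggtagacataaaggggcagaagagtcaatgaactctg

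Most of these promoters held few CpGs. The ratio of observed to expected CpG over the 300 bases was 0.15 at Acmsd, 0.16 at Hgd, 0.24 at Tdo2, 0.24 at Tat, 0.25 at Hpd, 0.39 at Haao, 0.49 at Kmo and 0.79 at Fah. The median over 21263 protein-coding promoters was 0.57, so 7 of the 8 genes lay below it and Fah was the exception. Among the 4207 promoters with a peak in all 6 libraries that were matched to RefSeq, 815 (19.4%) lay below the same median. The members' low ratios thus placed 7 of 8 in the smaller class of acetylated promoters.

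Short motifs were searched in the same windows. The letters TATAAA, searched on both strands, were found at Tdo2, at position -229 from the RefSeq start, and at Hgd, on the opposite strand at -139, against 12.6% of all promoters. The letters ACANNNTGT, a loose form of the glucocorticoid response element, were found at Tdo2 alone among the 8 genes, at -178, and in 5.97% of all promoters. The RefSeq start of Tdo2 lies 474 bp downstream of its GENCODE start, so both Tdo2 matches fall inside the GENCODE gene. The letters ATTGCNNAA (C/EBP), CAAAGTCCA (HNF4), GTTAATNAT (HNF1) and TGACGTCA (cyclic AMP response element) were in none of the 8 windows and in 2.03%, 0.451%, 0.720% and 2.23% of all promoters. All motifs were read on both strands.

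All 9 genes carried an acetylated promoter in every liver. A promoter peak was a peak within 1 kb of a start. At the start of the principal transcript (APPRIS principal, or the gene record where none is marked), 9 of 9 genes had one in all 6 libraries, whereas 24.2% of all protein-coding genes did. At the outermost start of the GENCODE gene record the count was 7 of 9, against 23.6% of all genes. The record start of Kmo lies 11615 bp upstream of its principal start. Between them lies the start of Fh1, which encodes the fumarate hydratase of the citric acid cycle. Kmo had no peak within 1 kb of that record start in any library, and Haao, whose record start lies 1214 bp upstream of its principal start, had one only in B6 replicate 1 and F1 BM. Principal starts are used from here on.

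The height of a peak is given as the fold enrichment at its summit over the caller's background, for the strongest peak in the promoter window. Its rank percentile is the place of that fold among all promoters with a peak in the same library. The fold is a ratio within a library and is not scaled for gene length.

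The tyrosine branch began with a modest promoter and continued with some of the strongest in liver. Tat (chr8:109990437-109999803, plus strand), whose enzyme removes the amino group of tyrosine, had folds of 5.66 and 4.73 in B6, 3.36 and 9.12 in MSM, 6.29 in F1 BM and 7.01 in the F1 MB library. At Tat, the MSM values enclosed all the others, and the rank percentile ran from 4.39 in MSM replicate 1 to 88.1 in F1 BM. Hpd (chr5:123171807-123182727, minus strand), which makes homogentisate, had folds of 23.8 and 13.8 in B6, 17.1 and 20.03 in MSM, 14.5 in F1 BM and 9.80 in F1 MB. Hpd stood at rank 12, 8, 28 and 12 among the promoters of the parental libraries and at rank 4 in F1 BM, but only at rank 405 in F1 MB.

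Hgd and Fah followed. Hgd (chr16:37580153-37632020, plus strand), which opens the ring of homogentisate, had folds of 15.4 and 11.6 in B6, 9.97 and 11.7 in MSM, 10.3 in F1 BM and 12.4 in F1 MB, all above the 90th percentile. Fah (chr7:84585159-84606722, minus strand) encodes the last enzyme of the branch and is lost in a form of hereditary tyrosinaemia. Fah had folds of 14.5 and 6.90 in B6, 9.54 and 12.8 in MSM, 8.50 in F1 BM and 8.08 in F1 MB. At both genes the B6 and MSM values overlapped, and the B6 replicates lay further apart than the strain means.

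At the head of the kynurenine branch, the promoter value depended on the window. Tdo2 (chr3:81957090-81976202, minus strand), which commits tryptophan to the branch, had folds of 8.57 and 4.03 in B6, 4.497 and 4.486 in MSM, 9.84 in F1 BM and 4.71 in F1 MB. B6 replicate 1 and F1 BM, the libraries with the longest lists, held its high values, and the other 4 stayed under the 40th percentile. The strongest peak of the joined Tdo2 domain had folds of 8.57 and 5.49 in B6, 8.46 and 7.10 in MSM, 9.84 in F1 BM and 4.71 in F1 MB, so in B6 replicate 2 and both MSM libraries the stronger peak lay outside the 1 kb window. Kmo (chr1:175620381-175662116, plus strand), which hydroxylates kynurenine, was the most even, with folds of 7.71 and 7.41 in B6, 8.06 and 6.44 in MSM, 7.26 in F1 BM and 7.84 in F1 MB.

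By median fold over the 6 libraries, Kynu, Haao and Acmsd were higher than Tdo2 and Kmo, but not in every library. Kynu (chr2:43555329-43682715, plus strand), which cleaves the side chain, had folds of 12.5 and 8.15 in B6, 7.77 and 10.99 in MSM, 7.81 in F1 BM and 8.80 in F1 MB. Haao (chr17:83831156-83847963, minus strand), which opens the ring of 3-hydroxyanthranilate, had folds of 17.97 and 6.90 in B6, 9.07 and 6.52 in MSM, 13.3 in F1 BM and 12.6 in F1 MB. At Haao both F1 libraries exceeded both MSM libraries, and the B6 replicates lay on either side of all the others but MSM replicate 2. Acmsd (chr1:127729413-127767978, plus strand) had folds of 17.5 and 3.74 in B6, 9.46 and 10.6 in MSM, 9.24 in F1 BM and 11.4 in F1 MB. Acmsd was low in B6 replicate 2 because only a short peak of that library lay next to the start, and its stronger peak, with a fold of 8.03, began 1177 bp downstream, outside the promoter window.

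By median over the 6 libraries the order was Hpd (15.8), Hgd (11.6), Haao (10.9), Acmsd (10.02), Fah (9.02), Kynu (8.47), Kmo (7.56), Tat (5.97) and Tdo2 (4.61). Tdo2 was the lowest in 2 libraries, Tat in 3 and Acmsd in 1. By the strongest fold in the joined domain, the median of Tdo2 was 7.78 and that of Tat, still 5.97, was the lowest. The ranges of every pair of neighbours in that order overlapped. The lowest value of Hgd, 9.97, was nevertheless above the highest values of Kmo, Tat and Tdo2, which were 8.06, 9.12 and 9.84. The median rank percentiles ran from 30.5 at Tdo2 to 99.9 at Hpd, and 6 of the 9 genes had a median above 90.

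**Figure D1:**
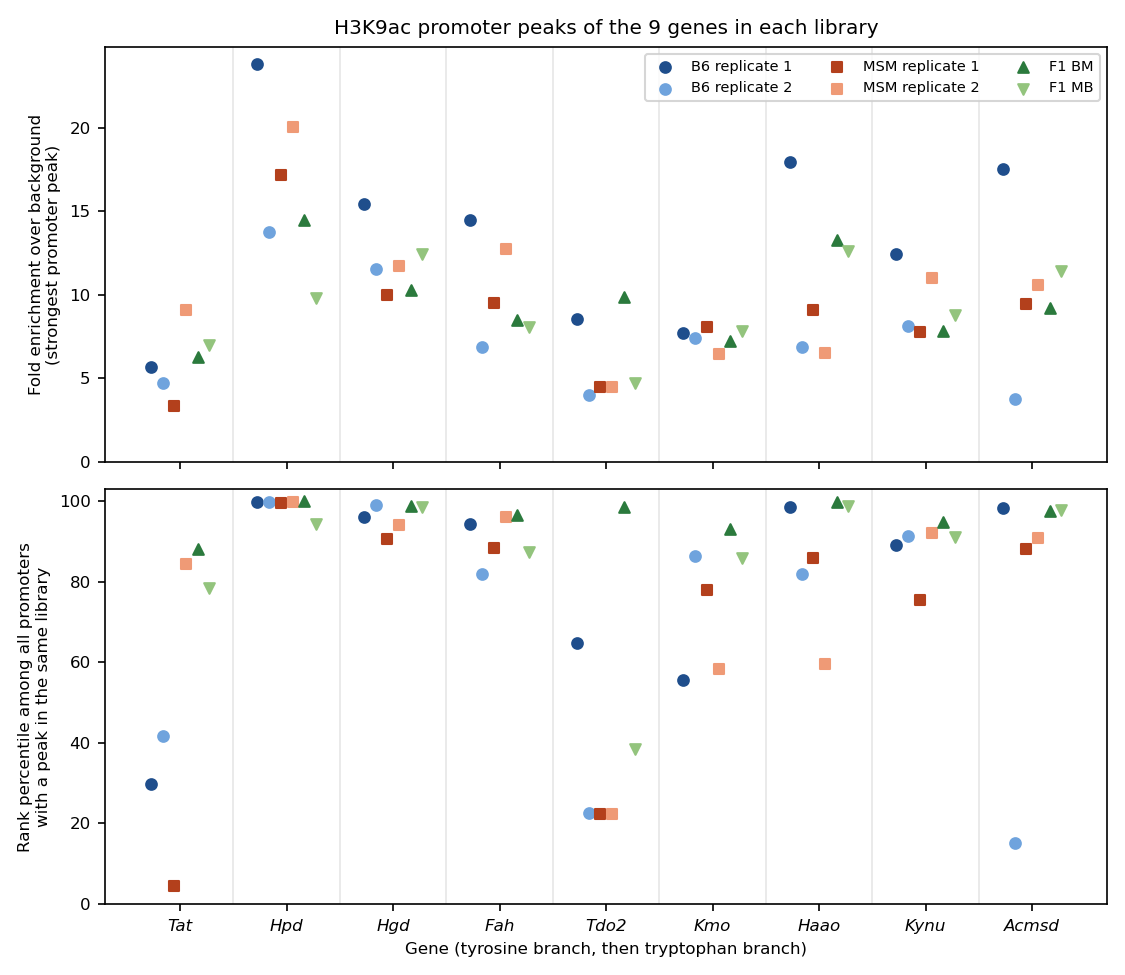
Fold enrichment of the strongest promoter peak (top, linear axis) and its rank percentile among all promoters with a peak in the same library (bottom) for the 9 genes, 1 point per library. Hpd sits at or near the top of every parental library, while Tdo2 lies under the 40th percentile in 4 libraries and Tat spreads from 4.39 to 88.1.

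In none of the 9 genes did the promoter fold separate the strains. The B6 and MSM values overlapped at 9 of 9 genes, so 0 were higher in both B6 libraries, against 11.1% of 5724 promoters with a peak in all 4 parental libraries, and 0 were higher in both MSM libraries, against 8.61%. The same held at the record start, with 0 of 7 genes in either direction against 11.2% and 8.59%. The largest difference in fold was at Haao, where B6 had 12.4 ± 7.83 and MSM 7.79 ± 1.80 (SD, n = 2 libraries each), which is 0.82 times the pooled SD (two-sided exact permutation p = 0.667). Relative to the spread it was Hgd, with 13.5 ± 2.74 in B6 and 10.8 ± 1.22 in MSM, or 1.26 times the pooled SD (two-sided exact permutation p = 0.667). The smallest p that 2 libraries against 2 allow is 0.333, so no such test can reach 0.05. Leaving out 1 library changed these counts, to 7 genes higher in B6 without B6 replicate 2 and to 4 higher in MSM without B6 replicate 1. No share over all promoters is given for these settings, so the changed counts cannot be read as particular to the 9 genes. Over all promoters with a peak in the library, the median fold was 7.21 and 5.06 in B6 and 5.87 and 5.93 in MSM. The part of these library-wide levels in the counts was not tested.

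When the strongest peak anywhere in the joined promoter domain was taken in place of the promoter window, 2 genes separated. Haao had 17.97 and 10.4 in B6 against 9.07 and 6.52 in MSM, and Kmo had 7.71 and 7.41 in B6 against 8.06 and 8.82 in MSM (exact permutation p = 0.333 for each). That is 1 of 9 genes higher in B6, against 11.0% of all promoters, and 1 of 9 higher in MSM, against 8.70%. Both shares were near the background.

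The acetylation of these promoters lay mostly downstream of the start. Over the 9 genes, 78.8% to 98.1% of the bases from 1 to 2 kb downstream of the start were inside a peak, by library, whereas over all 5305 promoters with a peak in all 6 libraries the share was 12.9% to 25.4%. From 2 to 3 kb downstream the shares were 52.8% to 87.7% against 4.499% to 9.87%. In the 500 bp upstream of the start, however, the members had 3.93% to 49.0% and all promoters 25.6% to 53.2%, and the members were below all promoters in 5 of the 6 libraries. F1 BM was the exception, with 45.6% against 34.1%.

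The shares from 1 to 2 kb downstream and in the 500 bp upstream were also taken by CpG class. Among the 815 acetylated promoters with a CpG ratio below the median, 25.4% to 42.5% of the bases from 1 to 2 kb downstream were in a peak, against 9.47% to 20.8% among the 3392 others. In the 500 bp upstream the shares were 19.3% to 45.7% and 27.4% to 55.2%. There the members were above the low-CpG class in B6 replicate 1 (49.0% against 45.7%) and F1 BM (45.6% against 31.5%). They were below it in the other libraries, from 19.1% against 19.4% in F1 MB to 3.93% against 25.9% in MSM replicate 2. The part of CpG content in the members' shares was not tested. These shares are descriptions, since the genes were chosen with results of these data known.

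**Figure D2:**
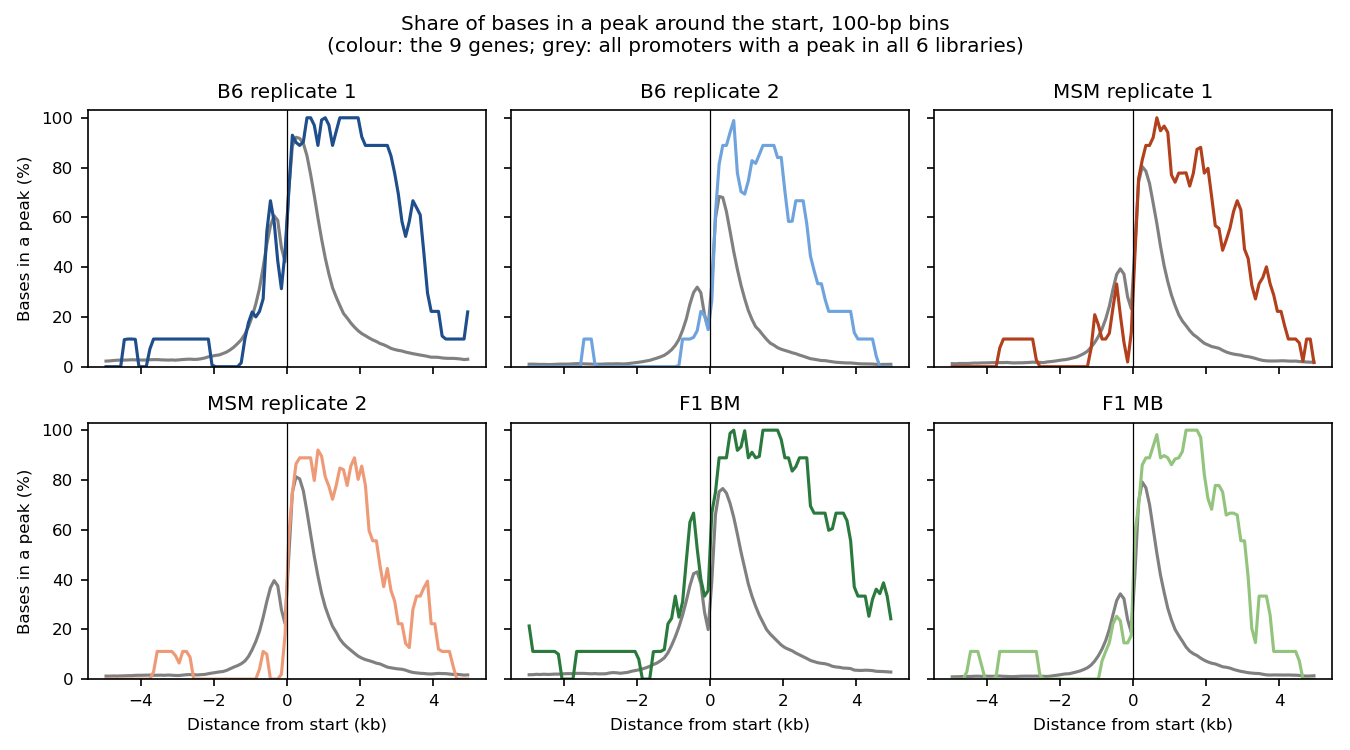
Percent of bases inside a peak by distance from the principal start, in bins of 100 bp, for the 9 genes (colour) and for the 5305 promoters with a peak in all 6 libraries (grey), 1 panel per library. The grey curve declines from its maximum just after the start, while the curve of the 9 genes stays high to 2 kb and beyond.

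The domains were broad. Peaks at most 500 bp apart were joined, and the domain at the promoter was at least 2 kb wide in all 6 libraries at 5 of 9 genes, against 6.41% of promoters with a peak in all 6. At the record start the count was 4 of 7, against 6.04%. Without joining, only Hgd had a peak of at least 2 kb at the promoter in all 6 libraries, at either start, against 0.867% of promoters at the principal start and 0.736% at the record start. Such widths were not particular to the 9 genes, since 5 of 9 hepatocyte markers and 7 of 15 genes of other hepatic amino acid breakdown with a peak in all 6 libraries also had domains of at least 2 kb throughout, and the median width was 3807 bp for these markers against 2935 bp for the 9 genes. Among the genes described here, Hgd had the widest domains, with 6200 and 4446 bp in B6, 6003 and 4512 bp in MSM, 6130 bp in F1 BM and 4517 bp in F1 MB. The median widths of the others ran from 2062 bp at Kmo to 4331 bp at Acmsd, whereas the median over all promoters with a peak in all 6 libraries was 1043 bp. Tdo2 had a median width of 2841 bp, and Tat one of 4022 bp.

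Most peak summits in the gene windows lay in introns. Of the 175 peaks in the gene windows over the 6 libraries, 135 (77.1%) had their summit in an intron, 11 in an exon and 29 outside the gene. Introns made up 79.96% of the bases of these windows. Over the windows of all 5305 genes with a promoter peak in all 6 libraries, 47.02% of summits were intronic, with 79.6% of the bases in introns. Without the 9 peaks of the Kmo window that lie next to the start of Fh1, 126 of 166 summits (75.9%) were intronic. The strongest peak of Acmsd had its summit at +2919, +2922, +2945, +2517, +2907 and +2959 bp, in the order of B6, MSM, F1 BM and F1 MB, so that its maximum lay far from the start in every library. At Tdo2 the strongest summit lay at +992 to +1435 bp. At Hgd, by contrast, it lay at +272 to +342 bp in 5 libraries and at +1428 bp in B6 replicate 2.

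The first base of the principal transcript was in no peak of any library at Tat, Hgd and Fah, and in a peak of all 6 libraries only at Haao. Over the 9 genes it was in a peak at 5, 2, 2 and 4 genes in the parental libraries, at 5 in F1 BM and at 3 in F1 MB, while 20.1% to 53.4% of all promoters had it in a peak. The share over the 9 genes was above that of all promoters in 5 libraries and below it in 1. At Tdo2 the domain began 511 to 819 bp downstream of the GENCODE start in 5 libraries, which is past the RefSeq start, placed 474 bp downstream of it.

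Peaks also broke at nearly the same position from liver to liver. At Fah the first peak ended at +1173, +1164, +1148, +1209, +1155 and +1132 bp and the next began at +1349, +1368, +1421, +1437, +1395 and +1377 bp, in the order B6, MSM, F1 BM, F1 MB. At Kynu the first peak ended at +683 to +772 bp and the next began at +830 to +914 bp in all 6 libraries. At Haao the first peak ended at +997 to +1020 bp and the next began at +1136 to +1162 bp in 5 libraries, while B6 replicate 1 had a single peak across that place. The gaps of these 3 genes thus recurred in both strains and both hybrids.

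**Figure D3:**
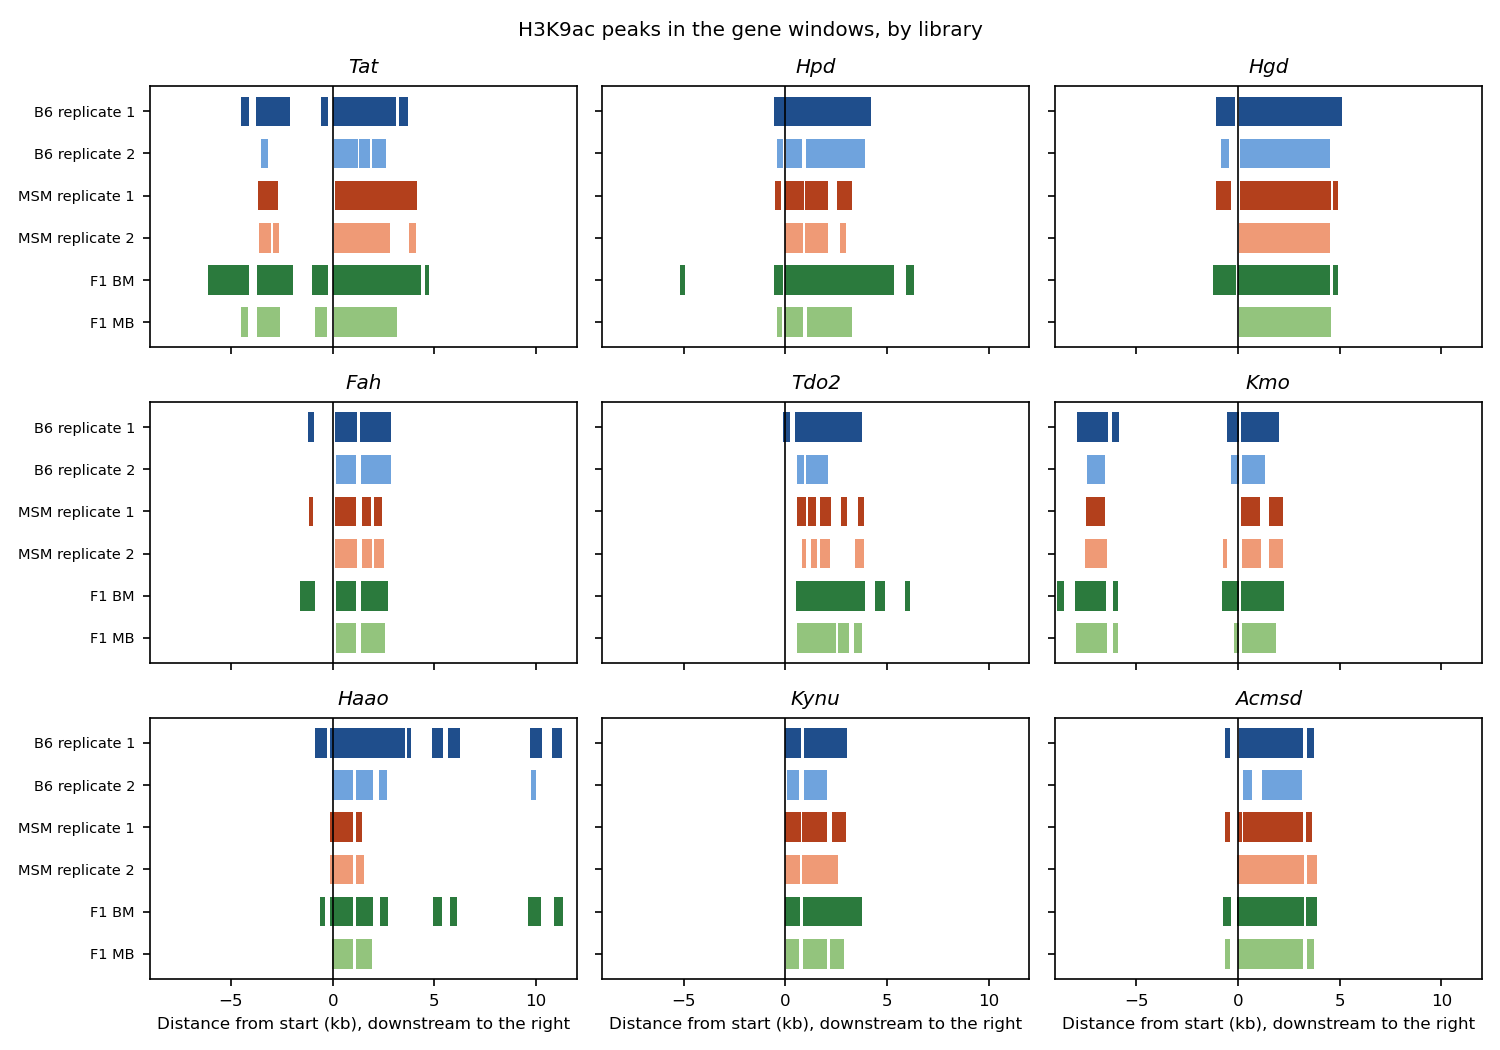
H3K9ac peaks in each gene window as bars, by library, against the distance from the principal start in kb (vertical line, downstream to the right). The domains lie on the right of the line, Tat has a second group of peaks 2 to 4 kb upstream, the peaks left of Kmo adjoin Fh1, and small Kmo peaks about 15 kb downstream are beyond the axis.

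Tat had a second acetylated region upstream, marked in all 6 libraries. Relative to the start, it ran from -3764 to -2095 bp in B6 replicate 1 (fold 9.20), from -3500 to -3192 bp in B6 replicate 2 (3.08), from -3668 to -2676 bp in MSM replicate 1 (5.66), from -3626 to -2622 bp as 2 peaks in MSM replicate 2 (4.17 and 5.05), from -3700 to -1929 bp in F1 BM (7.63) and from -3709 to -2587 bp in the F1 MB library (4.91). In B6 replicate 1, MSM replicate 1 and F1 BM this region had a higher fold than the Tat promoter. F1 BM held a further peak from -6118 to -4111 bp with a fold of 6.11, of which B6 replicate 1 and F1 MB held a part, with folds of 4.29 and 3.43.

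At Kmo the second region belonged to a neighbour. Peaks lying between -7982 and -6402 bp of the principal start, within 1 kb of the start of Fh1, were present in all 6 libraries. Their fold was 9.48 and 5.27 in B6, 11.9 and 7.96 in MSM, 6.99 in F1 BM and 7.31 in F1 MB. In MSM replicate 1 and B6 replicate 1 this was the highest peak in the Kmo window, so a value taken over the whole gene would be that of Fh1 there.

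The presence and absence of whole regions was compared next. The peaks of the 4 parental libraries merged into 30 regions in the gene windows. Of these, 13 had a peak in all 4 parental libraries, and all 13 also had one in both F1 libraries. That is against 30.1% of 25808 regions over the genome with a peak in all 4. A further 3 regions had a peak in 3 libraries, 4 in 2 and 10 in 1, and each of those 10 was in B6 replicate 1, with 8 of them also marked in F1 BM and 3 in F1 MB.

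B6 replicate 1 and F1 BM had the longest lists, and the part of list length in this pattern was not tested. A single region was B6-specific, with a peak in both B6 libraries and neither MSM library, against 3.29% of all regions. This count was 0 with lists of the same covered length, 2 with the same number of peaks, and 3, 11, 2 and 2 without B6 replicate 1, B6 replicate 2, MSM replicate 1 and MSM replicate 2. The region lies in Haao, 9673 to 10308 bp downstream of the principal start (chr17:83836441-83837076, intron), with folds of 5.13 and 2.79 in B6 and 3.87 in F1 BM, and no peak in F1 MB. No region was MSM-specific, against 3.38% of all regions, but 3 were without B6 replicate 1. The shares of 3.29% and 3.38% are for the full lists of all 4 parental libraries. No share over all regions is given for the other settings.

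The downstream reach of the promoter domain separated the strains at 4 of the 9 genes. Hpd reached 4210 and 3922 bp downstream in B6 but 3293 and 2077 bp in MSM, with 5328 bp in F1 BM and 3282 bp in F1 MB. Haao reached 3865 and 2678 bp in B6 but 1431 and 1515 bp in MSM, with 2701 bp in F1 BM and 1938 bp in F1 MB, both between the strains or within B6. Fah reached 2861 and 2846 bp in B6 but 2420 and 2539 bp in MSM, with 2723 bp in F1 BM and 2577 bp in F1 MB, both between the strains. Kmo went the other way, with 2030 and 1334 bp in B6, 2225 and 2227 bp in MSM, 2251 bp in F1 BM and 1873 bp in F1 MB.

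Set against the spread, the MSM minus B6 difference was -1381 bp at Hpd (2.21 pooled SD), -1799 bp at Haao (3.02 pooled SD), -374 bp at Fah (6.24 pooled SD) and 544 bp at Kmo (1.56 pooled SD), each with an exact permutation p of 0.333, the smallest possible. Thus 3 of 9 genes reached further in both B6 libraries, against 19.4% of 5724 promoters, and 1 of 9 reached further in both MSM libraries, against 8.11%. Counts of 3 and 1 among 9 genes were not far from these shares. At the other 5 genes the strains overlapped.

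The calls at Hpd, Haao, Fah and Kmo rest on joining peaks. Without joining, Hpd reached 4210 and 832 bp in B6 and 940 and 882 bp in MSM, Haao 3574 and 998 bp against 1003 and 999 bp, and Fah 1173 and 1164 bp against 1148 and 1209 bp, so the strains overlapped at all 3 genes. Kmo had 79 and 40 bp in B6 and 1085 and 1152 bp in MSM, but these were ends of different peaks. In B6 the value was that of a short peak over the start, which neither MSM library held. The first peak wholly downstream of the start ended at 2030 and 1334 bp in B6, and at 1085 and 1152 bp in MSM. The MSM reach of 2225 and 2227 bp came from a further peak joined to it. The values without joining thus cannot decide the Kmo call. With all lists shortened to the same number of peaks, Hpd, Haao, Fah and Kmo had -1381, -1653, -638 and 544 bp. Single libraries moved some of these differences, which became -773 bp at Hpd without MSM replicate 2, and 892 and 196 bp at Kmo without B6 replicate 1 and without B6 replicate 2.

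On the upstream side, Kmo and Tdo2 reached further in B6. At Kmo the upstream edge lay 542 and 330 bp before the start in B6, and 179 and 222 bp after it in MSM. The F1 libraries had it 772 bp (F1 BM) and 202 bp (F1 MB) before the start, so both hybrids had acetylation upstream of the start as in B6. MSM replicate 2 had a separate peak from -736 to -511 bp, which was not joined to the promoter peak at 500 bp. With joining at 1 kb the difference moved from -636.5 to -157.5 bp and the strains overlapped. With lists of the same covered length it was -292 bp, and the B6 replicate 1 edge then lay 147 bp after the start instead of before it. At Tdo2 the edge lay 98 bp before the start in B6 replicate 1 and 553 bp after it in B6 replicate 2, against 571 and 819 bp after it in MSM. F1 BM had the edge 511 bp and F1 MB 558 bp after the start, close to B6 replicate 2 and MSM replicate 1. The Tdo2 difference of -467.5 bp was -142 bp when B6 replicate 1 was left out, and -793 bp when the other B6 library was. That made 2 of 9 genes further upstream in B6, against 19.5% of promoters, and 0 of 9 in MSM, against 6.36%.

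**Figure D4:**
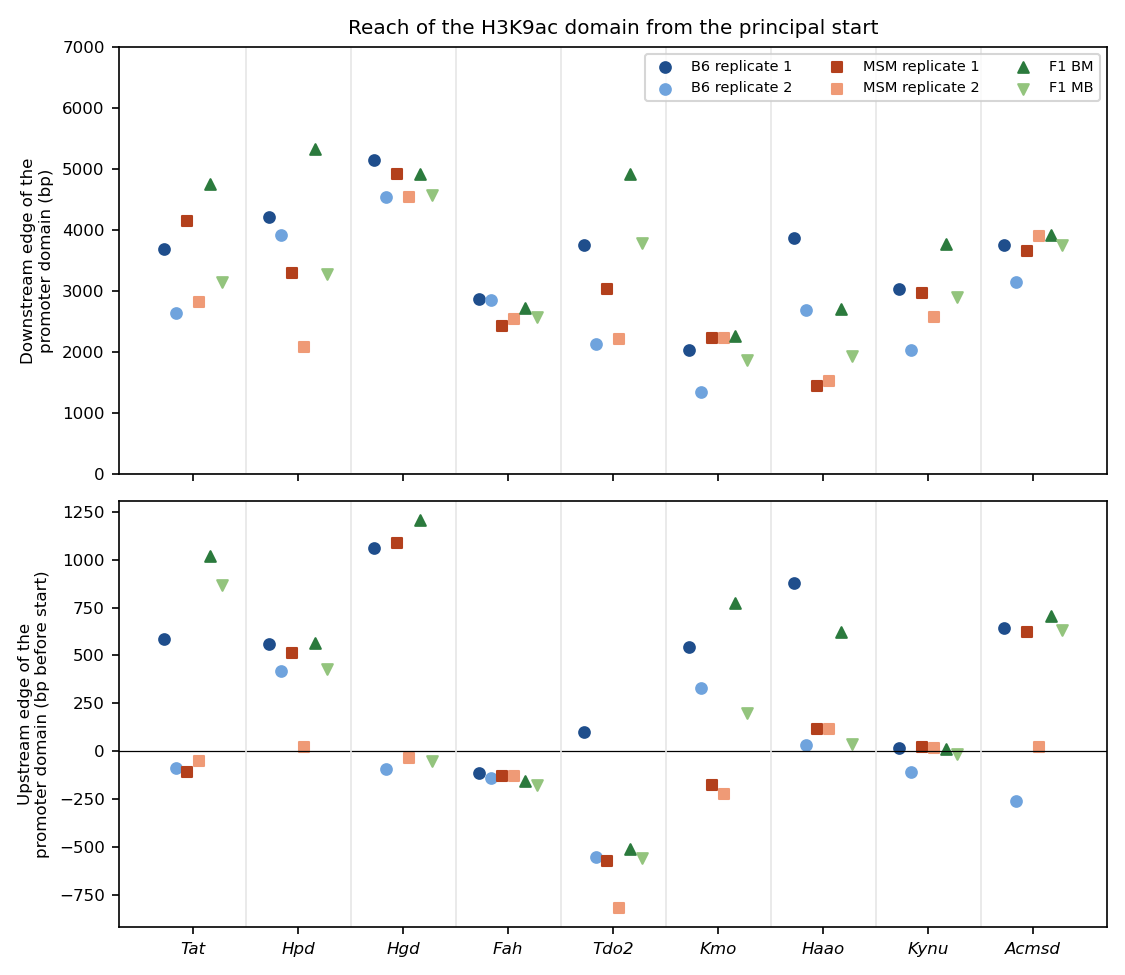
Downstream edge (top) and upstream edge (bottom) of the promoter domain in bp from the principal start, 1 point per library, with negative upstream values where the domain began after the start. The B6 points lie above both MSM points at Hpd, Fah and Haao in the top panel and at Tdo2 and Kmo in the bottom panel, and below them at Kmo in the top panel.

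The covered length of the whole gene window was higher in both B6 libraries at Hpd, Fah and Haao, the 3 genes that reached further downstream in B6. It includes the peaks of the promoter domains, so it is not independent of the reach. Hpd had 4772 and 4025 bp in B6 against 3111 and 2304 bp in MSM, Fah 2883 and 2506 bp against 2087 and 2099 bp, and Haao 6774 and 2485 bp against 1391 and 1477 bp. The size at Haao turned on the B6 libraries, since the MSM minus B6 difference of -3195.5 bp was -1051 bp when B6 replicate 1 was left out, -5340 bp when B6 replicate 2 was, and -1797 bp with lists of the same covered length. Thus 3 of 9 genes had more covered length in both B6 libraries, against 14.1% of 6706 genes, and 0 of 9 had more in both MSM libraries, against 4.52%. F1 MB lay below both B6 libraries at all 3 genes, and F1 BM was above both at Hpd and Fah.

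Base by base, 8.10% of the 43252 bases covered in any parental library were covered in both B6 and neither MSM library, against 4.31% over all protein-coding gene windows, and 1.75% in both MSM and neither B6 library, against 2.63%. The bases shared by all 4 made up 44.2%, against 26.5%. The B6-only share was 24.2% at Hpd, 16.1% at Haao, 15.3% at Fah, 10.1% at Kmo and 7.06% at Tdo2, and 0 bases were B6-only at Tat, Hgd, Kynu and Acmsd. Tat had the longest MSM-only stretch, 338 bp from 3770 to 4107 bp downstream.

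The longest B6-only stretches were 629 bp at Hpd (chr5:123178805-123179433), 449 bp at Haao (chr17:83844785-83845233), 371 bp at Kmo (chr1:175631666-175632036) and 307 bp at Fah (chr7:84603096-84603402). The stretch of Haao and that of Fah held no exonic base, that of Kmo held 41 and that of Hpd 68. Repeat-masked bases made up 0.89%, 0%, 9.43% and 9.06% of the stretches of Haao, Fah, Kmo and Hpd.

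The 120 bases at the middle of the stretches of Kmo, Fah and Haao are shown as the reference (B6) sequence, on the gene's strand with CpG in capitals. These are places inside a called peak in both B6 libraries and neither MSM library. The stretch of Hpd is not printed. With lists of the same covered length, the B6 replicate 1 domain began 147 bp after the Kmo start, past the bases printed. That of Kmo is upstream of its principal start, and those of Fah and Haao are intronic.
Kmo (chr1:175631792-175631911, -204 to -85 bp from the start): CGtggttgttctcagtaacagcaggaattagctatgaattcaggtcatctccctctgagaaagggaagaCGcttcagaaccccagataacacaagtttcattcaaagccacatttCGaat
Fah (chr7:84603190-84603309, 2633 to 2752 bp downstream): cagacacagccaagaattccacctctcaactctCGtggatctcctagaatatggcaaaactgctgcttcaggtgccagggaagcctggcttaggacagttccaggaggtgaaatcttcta
Haao (chr17:83844950-83845069, 1680 to 1799 bp downstream): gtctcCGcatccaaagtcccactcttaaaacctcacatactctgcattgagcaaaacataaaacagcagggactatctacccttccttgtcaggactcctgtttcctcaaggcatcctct
The 120 bases printed had a GC content of 43.3%, 50.0% and 46.7%, and 3, 1 and 1 CpGs.

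Related genes gave a similar picture, except for branched-chain amino acids. Of 20 other genes of phenylalanine, tyrosine and tryptophan metabolism, 14 had a promoter peak in all 6 libraries, with a median rank percentile of 88.5 and a median domain width of 2208 bp. These include Afmid, the formamidase between Tdo2 and Kmo (percentile 91.0, width 5121 bp), and Aldh8a1 (98.0, 1259 bp). Aadat had a peak in 5 libraries. The 5 genes with none in any library at the principal start were Ido1, which performs the step of Tdo2 in immune and other tissues, Th and Tph1, the hydroxylases of catecholamine and serotonin synthesis, Hpdl, and Il4i1, which did have a peak in all 6 libraries at its record start, with folds of 5.62 to 10.8.

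Among 16 genes of other hepatic amino acid breakdown, 15 had a promoter peak in all 6, with a median percentile of 89.4 and a median width of 3085 bp. Among 15 genes of branched-chain breakdown, whose first step takes place mainly outside the liver, 10 had one in all 6, with a median percentile of 55.4 and a median width of 808 bp, and Bcat2, the enzyme of that first step, had none in any library. Bckdha, a subunit of the branched-chain ketoacid dehydrogenase, was the exception with a percentile of 97.7 and a width of 2112 bp. The 9 genes had a median percentile of 91.5 and a median width of 2935 bp, against 61.3 and 1043 bp over all protein-coding genes with a promoter peak in all 6. No gene of the related lists had a promoter peak in both libraries of 1 strain and neither of the other. Dbt, the core subunit of the same dehydrogenase, had one in B6 replicate 1 and F1 BM alone, with folds of 4.39 and 2.24.

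**Figure D5:**
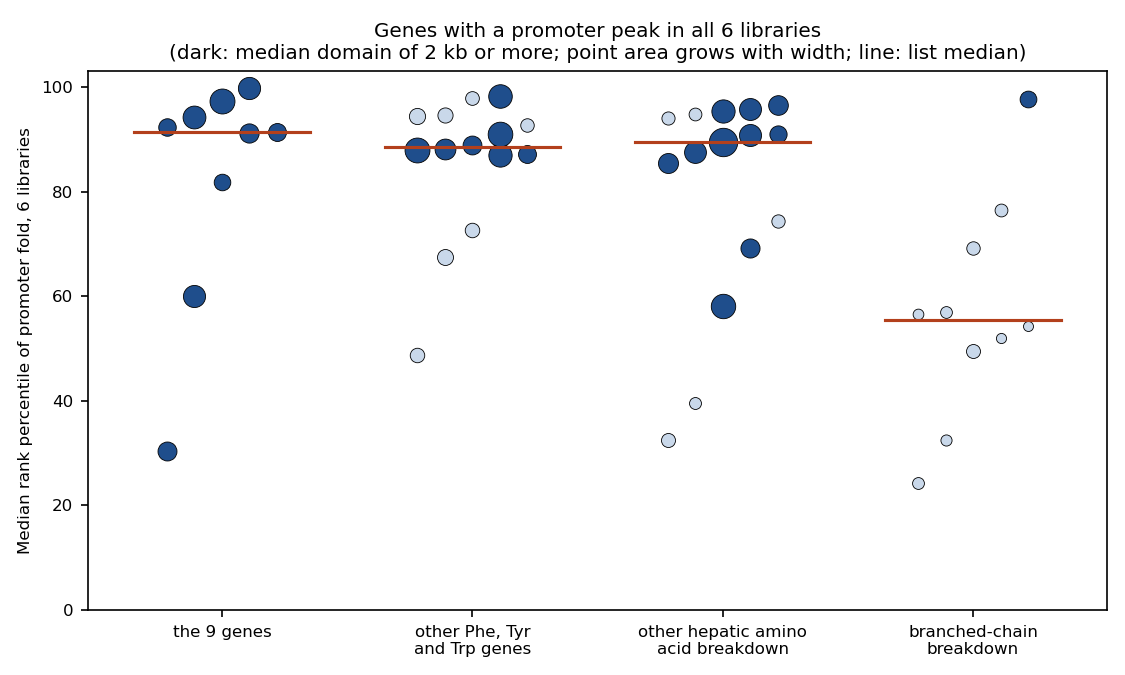
Median rank percentile of the promoter fold over the 6 libraries for each gene with a promoter peak in all 6, by list, with dark points for a median domain of 2 kb or more, point area growing with width and a line at the list median. The 9 genes are all dark, and the branched-chain list has 1 dark point, Bckdha, and a median of 55.4.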

How the data were processed

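H3K9ac ChIP-seq libraries of adult liver were prepared by the authors with the ab4441 antibody and sequenced as 50-bp paired reads. The authors trimmed reads with Trim Galore. Their methods name Bowtie 2 and mm10, while the submitters' processing notes list HISAT2, SAMtools and MACS2, without versions, so the mapper of these files is unsure. One narrowPeak list per library was deposited, so replicates were not pooled by the authors. The deposited fold is a ratio of signal to background at each summit. The caller's settings, and the control behind that background, are not known. The deposited −log10 p and −log10 q were written by the authors' caller, with the lowest −log10 q between 1.30 and 1.35, and the deposited score is derived from the −log10 q and was not used. The lists hold no read counts, so depth is not known from them, and an absent peak cannot be told from one too weak for its library.

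Peaks were compared with Python 3.11.15 and numpy 2.4.6 by overlap of at least 1 bp, and figures were drawn with matplotlib 3.10.9. Members and lists were chosen with earlier results of these data known. Named genes were the 9 members, genes starting within 1 kb of a counted peak, and from the related lists those without a promoter peak in any library, those with one in the libraries of 1 strain only, and the 3 with the highest median percentile (Afmid, Aadat and Dbt, and Csf1r of the markers, were named after their values were seen). One gene that this rule names is not reported here. Strains were compared by a two-sided exact permutation over 6 assignments, beside the pooled SD. Reads of both strains had been mapped to the B6 sequence. Functions were tested on simulated data. Alternatives were other windows, joining distances, list lengths, q limits, start annotations and leaving out each replicate.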

Additional observations from a re-analysis of the deposited data

How the results depend on the processing

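Members with a promoter peak in all 6 libraries numbered 7 to 9 at the principal start (9 as reported) and 5 to 9 when the record start (7) was the base. Regions with a peak in all 4 parental libraries, 13 as reported, were 9 to 15. B6-specific regions, 1 as reported, were 2 with lists of the same number of peaks, 0 with the same covered length, and 2 to 11 when single replicates were left out, with 11 without B6 replicate 2. MSM-specific regions, 0 as reported, were 1 with the same number of peaks, 1 with the same covered length, and 0 to 3 without single replicates, with 3 without B6 replicate 1. Members with a promoter fold higher in both B6 libraries, 0 as reported at either start, were at each start 1 with a promoter window of 2.5 kb (Haao), 1 by rank percentile (Hgd) and 1 by −log10 q (Tdo2). Without single replicates they were 0 to 7 at the principal start, with 7 without B6 replicate 2, 2 without MSM replicate 1 and 3 without MSM replicate 2, and 0 to 6 at the record start. Members higher in both MSM libraries, 0 as reported, were 1 at the principal start with a window of 2.5 kb (Kmo) and 0 to 4 without single replicates at either start, with 4 without B6 replicate 1. Members with a domain of at least 2 kb at the record start were 1 without joining, against 4. The downstream reach of Fah was 10 bp longer in MSM when peaks were not joined, and the strains then also overlapped at Hpd and Haao. The Kmo values without joining were ends of different peaks in B6 and MSM, so they cannot decide that call. Without single replicates the differences in downstream reach were -1989 to -773 bp at Hpd, -2392 to -1205 bp at Haao, -433.5 to -314.5 bp at Fah and 196 to 892 bp at Kmo, and the difference in covered length at Haao was -5340 to -1051 bp. With the same covered length the upstream difference at Kmo was -292 bp. With the replicate number as a replicate block, the paired difference in promoter fold at Hgd was -2.66, as without it, and no paired p of 2 pairs can go below 0.5; the numbers are not stated to pair the animals. The cause of these shifts was not tested. No share over all promoters or regions is given for the counts without single replicates. The absence of read counts limits every statement on an absent peak.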
